A study of Homo sapiens with 12 samples.

Results

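Parental SW480 cells, a human line from a colorectal adenocarcinoma, were exposed for 24 h either to the solvent DMSO or to an ALDH1B1 inhibitor at 2 µM, which the submitters call selective, and their polyadenylated RNA was sequenced. The comparison rests on 6 of the 12 libraries of the series, 3 per group, taken by the names of their count columns, and differences are coded inhibitor minus DMSO. All cells were grown in RPMI medium with serum, the inhibitor is not named in the sources used here, and 1 dose and 1 time point were measured. The other 6 libraries come from 1 ALDH1B1 knockout clone carrying an EGFP construct (3 libraries) or an ALDH1B1 construct (3 libraries), whose promoters are not given, and they are used only where a difference from the inhibitor comparison was tested. The series describes the replicates as biological, and a p-value here reflects variation among cultures of 1 line only.

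ALDH1B1 is a mitochondrial enzyme that oxidises aldehydes to carboxylic acids and is known as a marker of stem-like cells in the intestinal crypt. Several circuits in these data are well known. The aryl hydrocarbon receptor, AHR, is a ligand-activated transcription factor that pairs with ARNT on DNA and switches on CYP1A1 and its own repressor AHRR. MondoA (MLXIP) with its partner MLX follows glucose phosphates and drives TXNIP and ARRDC4, arrestin-like proteins that restrain glucose uptake. KLF15 is a metabolic transcription factor best known as a glucocorticoid target and as a regulator of amino acid breakdown.

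Each library of the parental line held 32617089 to 38689390 counted reads. Identity genes of the colorectal epithelium were present in all 6 libraries, with KRT8 at 3540 to 3995 CPM (reads scaled to library size) and EPCAM at 710 to 792 CPM. Summed levels of markers of other cell types overlapped between the groups. For 13 fibroblast genes the sum was 15.96 to 18.3 CPM with DMSO and 16.5 to 18.9 CPM with the inhibitor, with LUM the highest at a mean of 7.69 CPM. For 10 endothelial genes it was 4.51 to 6.75 and 3.98 to 6.399 CPM. The summed level of 15 leukocyte genes was 2.61 to 2.87 CPM with DMSO and 2.41 to 2.89 CPM with the inhibitor, and each of the 15 was under 1 CPM in every library. DMSO replicate 2 stood apart from the other DMSO libraries, at a chi-square per degree of freedom of 10.3 and 6.93 against 3.68 between those. The inhibitor libraries stood at 5.68 to 8.09 from each other. Libraries of different groups stood at 10.5 to 20.8, so DMSO replicates 1 and 2 were about as far apart as the nearest of these pairs. Counts per gene list moved with several single libraries, which are named beside them.

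Across the transcriptome few genes were called between the groups, mostly with small changes, and the larger changes were mostly falls. Of 17848 genes tested, 712 (3.99%) passed an adjusted p of 0.05 in edgeR's quasi-likelihood test with Benjamini-Hochberg adjustment, and these are the genes described as rising or falling. Of these 338 (1.89%) rose and 374 (2.1%) fell, with a median absolute log2 fold change of 0.32. A change of at least 1.5-fold was seen in 18 rising genes (0.101%) and 87 falling genes (0.487%), and 3 rose and 26 fell at least 2-fold. In 696 of the 712 (3.9% of genes tested) the lowest library of one group lay above the highest of the other. Groups that did not overlap were found in 24.2% of all genes tested. An unadjusted edgeR p under 0.05 was found in 3523 genes, so the 712 are not a count of all genes changed. The number of calls depended on single libraries, at 171 without DMSO replicate 3, 178 without inhibitor replicate 3 and 447 without the unnumbered inhibitor library. All 712 kept their direction in each of these fits, which was nearly fixed in advance for the 696 without overlap. The authors' deposited table calls 939 genes, among them 668 of the 712.

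**Figure D1:**
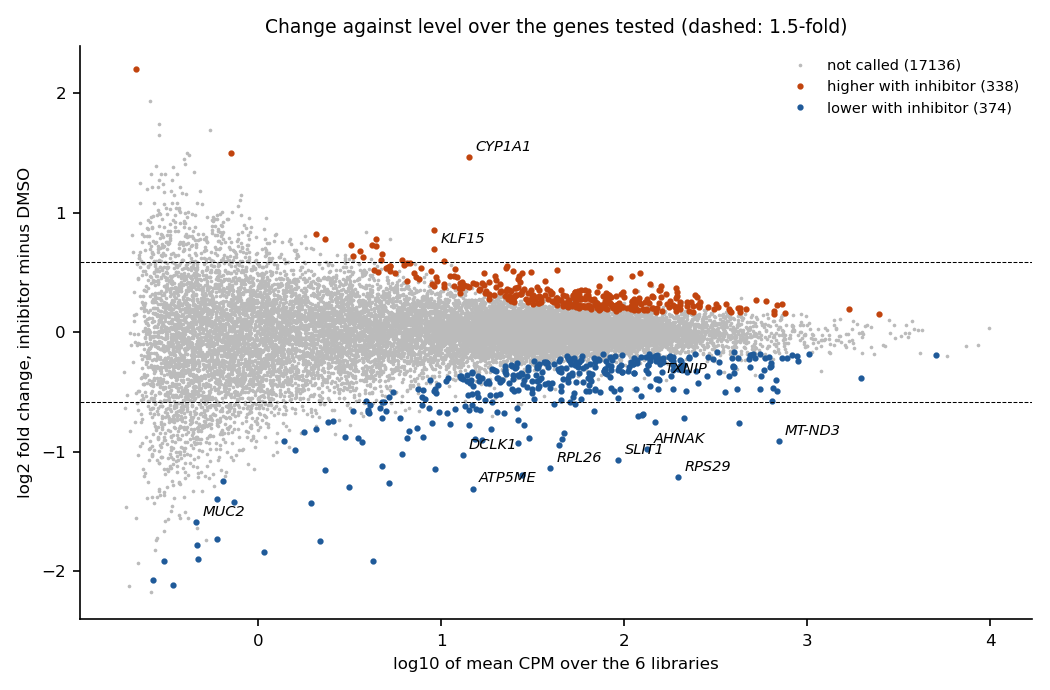
Log2 fold change (inhibitor minus DMSO) against the log10 of the mean CPM over the 6 libraries, 1 point per gene tested, coloured where the adjusted p passed 0.05, with dashed lines at 1.5-fold. The 338 genes that rose and 374 that fell flank a dense core of small changes, and CYP1A1 lies highest among the rising genes at 5 CPM or more.

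ALDH1B1 mRNA was not detectably changed by the inhibitor. Its level was 46.3, 53.1 and 50.7 CPM with DMSO and 50.3, 50.5 and 50.5 CPM with the inhibitor, so the inhibitor libraries lay inside the range of the DMSO libraries. The log2 difference was 0.01 (SE 0.06; edgeR, adjusted p = 0.94). The mRNA level gives no measure of enzyme activity, so target engagement cannot be read from it.

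CYP1A1 of the aryl hydrocarbon receptor circuit had the largest rise among genes at 5 CPM or more, and AHRR and ALDH1A3 of the same circuit rose by less. CYP1A1 (ENSG00000140465), the P450 gene used as the standard readout of receptor activity, stood at 8.97, 5.54 and 8.03 CPM with DMSO and at 19.1, 19.996 and 23.6 CPM with the inhibitor. Every inhibitor library lay more than 10 CPM above every DMSO library. The log2 fold change was 1.47 (SE 0.14; edgeR, adjusted p = 4.6e-05) and ran from 1.29 to 1.61 over all alternative fits. AHRR, the receptor's repressor and feedback target, rose from 187, 158 and 174 to 226, 210 and 219 CPM. Its groups did not overlap, and the log2 fold change was 0.33 (SE 0.06; edgeR, adjusted p = 0.0059). ALDH1A3, a cytosolic retinaldehyde dehydrogenase that is also an AHR-responsive gene, rose from 146, 151 and 153 to 193, 187 and 183 CPM, a log2 fold change of 0.32 (SE 0.05; edgeR, adjusted p = 0.0015). Of its principal transcript 42.0% overlaps another annotated gene, so its count is less certain.

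The region just upstream of CYP1A1 is shown because it is the gene with the largest rise and carries the short core letters that the receptor and ARNT bind, GCGTG. The sequence is the 250 bases before the RefSeq start site on GRCh38.p14, chr15:74725529-74725778, minus strand, with GCGTG in capitals.

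CYP1A1: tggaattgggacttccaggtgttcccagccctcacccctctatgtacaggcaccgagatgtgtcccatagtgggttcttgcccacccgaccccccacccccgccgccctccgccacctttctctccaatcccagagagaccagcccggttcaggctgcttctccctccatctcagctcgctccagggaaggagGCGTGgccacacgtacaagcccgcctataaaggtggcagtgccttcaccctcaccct

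The letters occur once in this window on either strand, at -57 to -53 from the start site. On either strand GCGTG is found in 32.2% of the 35116 RefSeq windows of this length, so a match is frequent. The other windows examined, at the RefSeq start nearest the gene start in the files, all hold it too. These are the windows of AHRR, TIPARP, ALDH1A3 and KLF15, which rose, and of TXNIP and ARRDC4, which fell. The match describes letters and says nothing about binding.

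The rest of the receptor's list moved less. Of 14 tested members of an 18-gene list of its targets, 4 rose and 1 fell, with a median log2 fold change of 0.15. The called share was 35.7%, against 3.99% of all genes. Beside those given, TIPARP, a feedback repressor that ADP-ribosylates the receptor, rose by a log2 of 0.20 (SE 0.05; edgeR, adjusted p = 0.04), from 121 to 126 CPM with DMSO to 136 to 149 CPM. That call ended in 6 of 11 alternative fits, among them those without DMSO replicates 1, 2 or 3, the unnumbered inhibitor library or inhibitor replicate 3 (edgeR, adjusted p up to 0.21 with a library left out). The growth factor gene EREG fell by 0.33 (SE 0.06; edgeR, adjusted p = 0.005), from 233, 265 and 242 to 197, 207 and 184 CPM. CYP1A2, the liver-type neighbour of CYP1A1, reached at most 0.61 CPM and gave a log2 difference of 1.04 (SE 0.44) that did not pass (edgeR, adjusted p = 0.2). CYP1B1 was at 0.052 to 0.11 CPM with DMSO and 0.16 to 0.38 CPM with the inhibitor, too low to be tested. NQO1, shared with the NRF2 pathway, had a log2 difference of -0.05 (SE 0.07) and ALDH3A1 one of 0.26 (SE 0.28), and neither passed. The receptor gene AHR itself was at 26.4 to 28.5 CPM with DMSO and 27.0 to 30.1 CPM with the inhibitor, and ARNT, with a log2 difference of 0.21 (SE 0.06), missed the threshold (edgeR, adjusted p = 0.071). Of 11 genes for the receptor complex and its cofactors 1 rose, the chaperone gene HSP90AB1, at a log2 of 0.20 (SE 0.04; edgeR, adjusted p = 0.013). Without DMSO replicate 3 or inhibitor replicate 3 that gene no longer passed (edgeR, adjusted p = 0.12 and 0.08).

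**Figure D2:**
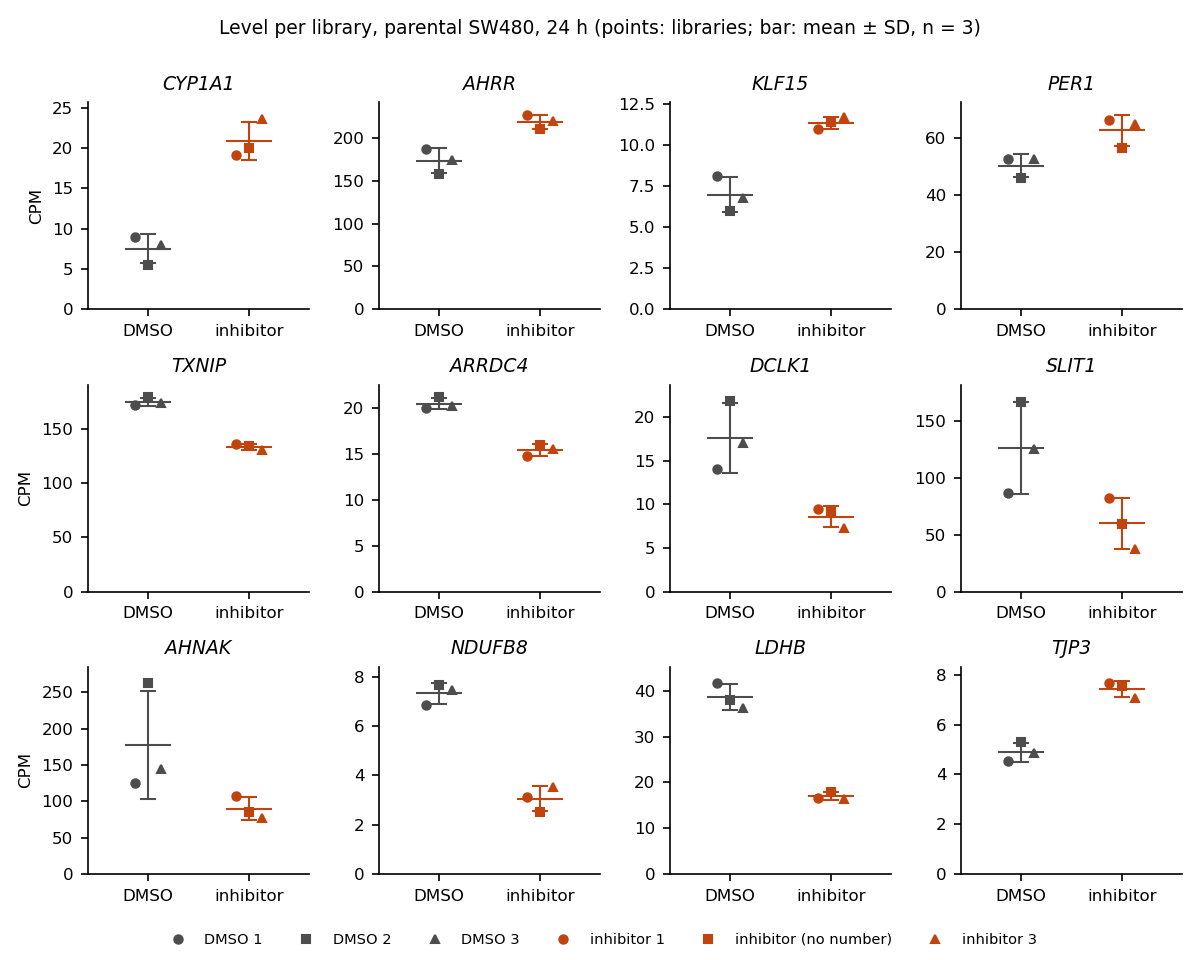
CPM of 12 genes in each of the 6 libraries, with the mean and SD of each group (n = 3); the symbol marks the library. CYP1A1, AHRR, KLF15, PER1 and TJP3 are higher in every inhibitor library, TXNIP, ARRDC4, DCLK1, SLIT1, AHNAK, NDUFB8 and LDHB lower, and DMSO replicate 2 is far above the rest for AHNAK.

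KLF15 (ENSG00000163884, chromosome 3, 126342635 to 126357442, minus strand) had the second largest rise among called genes at 5 CPM or more whose groups did not overlap. It stood at 8.13, 6.01 and 6.80 CPM with DMSO and at 10.97, 11.4 and 11.7 CPM with the inhibitor. The groups did not overlap, and the log2 fold change was 0.70 (SE 0.11; edgeR, adjusted p = 0.0036). On a 19-gene list of glucocorticoid and KLF15 genes, 5 of 17 tested members rose and 1 fell, with a median of 0.03. That is a called share of 35.3%, against 3.99% of all genes. DDIT4, an inhibitor of mTORC1 that glucocorticoids and stress both induce, rose from 176, 159 and 168 to 218, 216 and 217 CPM, a log2 fold change of 0.37 (SE 0.05; edgeR, adjusted p = 8.5e-04). An antisense gene overlaps 48.5% of its principal transcript. PER1, a clock gene with a strong glucocorticoid response, rose by 0.31 (SE 0.07), and ALDH6A1, a mitochondrial enzyme of valine breakdown, by 0.31 (SE 0.07; edgeR, adjusted p = 0.023 and 0.019). Both calls ended on leaving out DMSO replicate 2 (edgeR, adjusted p = 0.06 and 0.055) or DMSO replicate 3 (edgeR, adjusted p = 0.071 and 0.082). The PER1 call also ended without inhibitor replicates 1 or 3, and the ALDH6A1 call without the unnumbered inhibitor library (edgeR, adjusted p up to 0.11). Other well-known glucocorticoid targets did not pass. FKBP5 had a log2 difference of -0.13 (SE 0.07), TSC22D3 one of 0.01 (SE 0.08), KLF9 one of 0.06 (SE 0.08), and the receptor gene NR3C1 one of -0.13 (SE 0.14). The list had 2 rises without DMSO replicate 2 or 3 and 3 without any 1 of the inhibitor libraries, and its fall was not called without DMSO replicate 3 or inhibitor replicate 3.

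TXNIP and ARRDC4, the paired readouts of MondoA, both fell. TXNIP (ENSG00000265972, chromosome 1, 145992435 to 145996600, minus strand) went from 172, 179 and 173 CPM with DMSO to 136, 134 and 130 CPM with the inhibitor. The gap between the groups was several times the spread within either. The log2 fold change was -0.39 (SE 0.05; edgeR, adjusted p = 3.1e-04) and stayed between -0.40 and -0.38 in every alternative fit. ARRDC4 fell from 20.03, 21.2 and 20.3 to 14.8, 16.0 and 15.6 CPM, a log2 fold change of -0.41 (SE 0.08; edgeR, adjusted p = 0.0089), which just missed the threshold without DMSO replicate 3 (edgeR, adjusted p = 0.052). No other member of the 10-gene MondoA list passed, and the median of that list was -0.07. The falls made up 20% of it, against 2.1% of all genes. The factor genes MLXIP and MLX had log2 differences of -0.05 (SE 0.06) and 0.04 (SE 0.07) and did not pass.

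The upstream windows of these genes are shown because they fell side by side and MondoA is known to act through E-box-like letters. Each window holds the 250 bases before the RefSeq start site on GRCh38.p14. The TXNIP window is chr1:145996580-145996829, minus strand, and the ARRDC4 window is chr15:97960453-97960702, plus strand. Capitals mark the fixed letters of the paired motif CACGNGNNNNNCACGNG in TXNIP and the E-box CACGTG in ARRDC4.

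TXNIP: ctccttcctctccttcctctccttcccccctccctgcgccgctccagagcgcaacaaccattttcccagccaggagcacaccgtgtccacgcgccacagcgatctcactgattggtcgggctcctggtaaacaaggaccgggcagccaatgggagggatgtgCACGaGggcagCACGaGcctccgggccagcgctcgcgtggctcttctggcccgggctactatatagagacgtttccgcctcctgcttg

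ARRDC4: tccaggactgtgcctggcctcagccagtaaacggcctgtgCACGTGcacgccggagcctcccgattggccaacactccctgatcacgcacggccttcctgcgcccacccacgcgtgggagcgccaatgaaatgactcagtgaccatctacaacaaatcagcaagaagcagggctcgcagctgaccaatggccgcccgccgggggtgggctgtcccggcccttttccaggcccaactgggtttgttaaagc

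Searched on both strands, the paired motif occurs in 16 of 35116 RefSeq windows (0.0456%), and TXNIP holds it at -88 to -72. CACGTG occurs in 6.34% of windows, and ARRDC4 holds it at -210 to -205. The KLF15 window, whose gene rose, also holds CACGTG, at -46 to -41. These are matches of letters only.

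DCLK1 (ENSG00000133083, chromosome 13, 35768652 to 36131306, minus strand), a microtubule-associated kinase that marks tuft cells and tumour stem-like cells, fell from 14.01, 21.9 and 16.999 CPM with DMSO to 9.45, 9.11 and 7.29 CPM with the inhibitor. DMSO replicate 2 was the highest library, and the groups did not overlap. The log2 fold change was -1.03 (SE 0.14; edgeR, adjusted p = 0.0011), and -0.85 without DMSO replicate 2. TAS1R3, the highest gene of the tuft list, had a higher mean level than DCLK1, but several genes that define the lineage were nearly absent. POU2F3, the lineage factor, was at most 0.34 CPM, the channel gene TRPM5 at most 0.14 CPM and GFI1B at most 0.29 CPM. DCLK1 was the only one of 8 tested tuft markers called, though 2 were called lower without DMSO replicate 1 and 3 without inhibitor replicate 1, and 12 of the list's 19 genes were under 1 CPM in every library. With DCLK1 included, the tuft list summed to 71.2 to 74.2 CPM with DMSO and 64.3 to 69.2 CPM with the inhibitor. The sum was lower in every inhibitor library, but it counts the fall of DCLK1 again and shows no fall of the other tuft genes. Of the 8 tested members 3 had positive and 5 negative differences, with a median log2 fold change of -0.05. In bulk RNA fewer cells of a type and less RNA per cell cannot be told apart.

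Lists of the crypt and of differentiated lineages held at most 2 called genes each. Called members made up 5.88% of the stem cell markers, 7.69% of the Wnt targets and 9.09% of the enterocyte markers tested. All of these were rises, against 1.89% of all genes rising. Of 17 tested intestinal stem cell markers 1 rose (3 without DMSO replicate 1 and 2 without inhibitor replicate 1), NOTUM, a secreted Wnt antagonist, from 551, 525 and 556 to 699, 629 and 625 CPM. Its log2 fold change was 0.26 (SE 0.05; edgeR, adjusted p = 0.011), and it just missed the threshold without DMSO replicate 3 (edgeR, adjusted p = 0.058). LGR5, the Wnt-dependent stem cell receptor, was at 3.39 to 4.07 CPM with DMSO and 3.53 to 3.99 CPM with the inhibitor, and the stem cell factor ASCL2, with a log2 difference of 0.15 (SE 0.06), did not pass. Of 26 tested Wnt targets 2 rose, NOTUM and the transcription factor gene SP5. SP5 rose by 0.22 (SE 0.04; edgeR, adjusted p = 0.014), and not without DMSO replicate 3 (edgeR, adjusted p = 0.09) or with a length and GC offset (edgeR, adjusted p = 0.1). Of 11 tested enterocyte markers 1 rose, VIL1, the microvillus actin-bundling protein villin, from 358, 337 and 348 to 395, 397 and 404 CPM. Its log2 fold change was 0.20 (SE 0.04; edgeR, adjusted p = 0.02), and it did not pass without DMSO replicates 2 or 3, the unnumbered inhibitor library or inhibitor replicate 3 (edgeR, adjusted p from 0.058 to 0.13). A gene on the opposite strand shares 46.6% of its principal transcript. As sums over each list, stem cell markers were at 1737 to 1785 CPM with DMSO and 1915 to 2008 CPM with the inhibitor, and enterocyte markers at 656 to 665 and 705 to 721 CPM. Both sums were higher in every inhibitor library. Their highest genes were NOTUM and VIL1, the called ones, at means of 598 and 373 CPM. Goblet cell markers summed to 41.3 to 44.3 and 36.2 to 41.2 CPM and enteroendocrine markers to 24.7 to 28.1 and 22.5 to 23.9 CPM. Both were lower in every inhibitor library, but for goblet markers the groups nearly met, at 41.33 and 41.23 CPM. In these lists 10 of 14 and 14 of 17 genes were under 1 CPM in every library. Their highest genes were TFF3 and SYP, at means of 18.2 and 18.7 CPM. Among single genes tested 24.2% had groups that did not overlap, so such a separation is frequent. The goblet cell mucin MUC2 was barely detected, at 0.73, 0.68 and 0.65 CPM with DMSO and 0.19, 0.24 and 0.26 CPM with the inhibitor, or 22 to 27 against 7 to 9 reads. It fell by 1.59 on the log2 scale (SE 0.38; edgeR, adjusted p = 0.03), but leaving out any single library ended the call (edgeR, adjusted p from 0.065 to 0.11).

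The largest falls at 5 CPM or more included SLIT1, AHNAK and B3GALT5, in which DMSO replicate 2 was the highest library. The same library was the lowest for several rises, such as CYP1A1, KLF15, AHRR, CDT1, BBC3 and GDF15, but not for CDK18, CGNL1 or JUNB. SLIT1, a secreted guidance ligand of ROBO receptors, was at 86.7, 167 and 125 CPM with DMSO and at 82.4, 59.6 and 37.7 CPM with the inhibitor. The lowest DMSO and the highest inhibitor library nearly met. The log2 fold change of -1.07 (SE 0.22; edgeR, adjusted p = 0.014) went to -0.82 without DMSO replicate 2, and did not pass without DMSO replicate 3 or inhibitor replicate 3 (edgeR, adjusted p = 0.051 and 0.052) or with DESeq2 (adjusted p = 0.078). AHNAK, a very large scaffold protein of the membrane skeleton, was at 125, 262 and 145 CPM with DMSO and at 107, 85.2 and 77.4 CPM with the inhibitor. DMSO replicate 2 was far above the others. Its log2 fold change was -0.98 (SE 0.19; edgeR, adjusted p = 0.012) and -0.59 without that library, and it did not pass without inhibitor replicate 3 (edgeR, adjusted p = 0.071) or with DESeq2 (adjusted p = 0.082). The galactosyltransferase gene B3GALT5 fell from 49.9, 72.3 and 56.3 to 35.5, 33.1 and 27.4 CPM, a log2 fold change of -0.89 (SE 0.11; edgeR, adjusted p = 6.7e-04) that was -0.73 without DMSO replicate 2. The long noncoding RNA gene LINC02178 fell from 55.2, 57.7 and 61.9 to 28.3, 37.3 and 25.0 CPM, with a log2 fold change of -0.95 (SE 0.11; edgeR, adjusted p = 2.2e-04).

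Several of the other large falls lie in genes whose exons are shared with another annotated gene. NDUFB8, a complex I subunit gene, fell from 6.86, 7.66 and 7.46 to 3.13, 2.51 and 3.53 CPM, and 71.7% of its principal transcript is shared. LDHB, the lactate dehydrogenase subunit of oxidative tissues, fell from 41.8, 38.0 and 36.3 to 16.5, 18.0 and 16.3 CPM, with 64.6% shared. BLOC1S1, a subunit of complexes that position lysosomes, fell from 13.4, 13.2 and 11.7 to 5.39, 6.18 and 5.76 CPM, with 64.1% shared with a readthrough gene among others. ATP5ME, an ATP synthase subunit gene, fell from 21.9, 19.8 and 22.1 to 6.50, 10.7 and 8.56 CPM, with 49.9% shared with MYL5 on the opposite strand. In each the groups were far apart and the call held in all 11 alternative fits, yet the counting program is not given, so how shared reads were assigned is unknown. Among protein-coding genes at 5 CPM or more, 7.06% of the 255 with at least 50% shared exons fell, against 2.94% of the 6567 with none.

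Calls among respiratory chain and ribosomal genes were falls, in a minority of members. Most were small, but a few members, such as ATP5ME, NDUFB8, RPS29, RPL26 and MT-ND3, were among the largest falls, at log2 fold changes of -1.31, -1.26, -1.21, -1.14 and -0.91. Of nuclear complex I genes, 9 of 37 fell, with a median log2 fold change of -0.15. Of complexes II to IV, 12 of 25 fell (median -0.16), and of ATP synthase 7 of 18 (median -0.16). Of the 13 mitochondrially encoded messages 3 fell, and all 13 had negative differences (median -0.17). Of the cytosolic ribosome 10 of 47 large-subunit and 9 of 32 small-subunit genes fell (median -0.11 in both). By contrast 3 of 76 mitochondrial ribosomal genes fell, a share near the 2.1% of all genes. Of the falls 4 of 9 in complex I, 5 of 7 in ATP synthase and 4 of 10 in the large subunit were in genes with at least 20% of the principal transcript shared. The counts depended on single libraries. Without DMSO replicate 2 they were 9, 7, 7, 8, 12, 7 and 1 in the same order, without DMSO replicate 3 they were 6, 2, 6, 1, 5, 5 and 0, and without inhibitor replicate 3 they were 6, 3, 6, 1, 6, 6 and 0. Without inhibitor replicate 1 complexes II to IV had 4 falls and the large subunit 6. Without DMSO replicate 1 the mitochondrially encoded messages had 1 and the mitochondrial ribosome 5, and without the unnumbered inhibitor library the small subunit had 14.

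Members of these lists show how the libraries lay. MT-ND3, a complex I subunit read from the mitochondrial chromosome, fell from 920, 885 and 940 to 433, 592 and 434 CPM, a log2 fold change of -0.91 (SE 0.09; edgeR, adjusted p = 6.2e-05). RPS29, a small-subunit ribosomal protein gene with many processed pseudogenes, fell from 261, 267 and 299 to 97.998, 161 and 97.6 CPM. NDUFB1, an accessory complex I gene, fell from 32.6, 34.3 and 37.2 to 17.1, 23.2 and 14.4 CPM. In all 3 genes the unnumbered inhibitor library lay closest to DMSO. RPS15A, another small-subunit gene, had no such difference between the inhibitor libraries, at 144, 155 and 144 against 90.6, 89.8 and 91.8 CPM (log2 fold change -0.70, SE 0.05; edgeR, adjusted p = 1.7e-06). The cytochrome oxidase genes COX7C and COX7A2 fell by 0.40 (SE 0.07) and 0.35 (SE 0.05; edgeR, adjusted p = 0.0044 and 0.0028).

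Short transcripts as a class moved with the groups. The class held 147 protein-coding genes at 5 CPM or more, under 800 nt by principal transcript and outside the nuclear respiration and ribosome lists. Mitochondrially encoded messages such as MT-ND3 (346 nt) were not left out of it. Of the 147 genes 20.4% fell, against 2.1% of all genes, and their median log2 fold change was -0.12. As deviations from the 6-library mean on the log2 scale, they were at 0.042, 0.049 and 0.084 in DMSO replicates 1, 2 and 3. They were at -0.055 and -0.11 in inhibitor replicates 1 and 3 and at -0.0069 in the unnumbered library. All DMSO libraries were therefore above all inhibitor libraries, with the unnumbered one again nearest to DMSO. Many respiratory and ribosomal transcripts are short, and the part of length in their falls was not tested beyond an offset for length and GC content. With that offset 8, 8, 7, 1, 9 and 6 genes fell in complex I, complexes II to IV, ATP synthase, the mitochondrial chromosome and the large and small ribosomal subunits. The medians of these lists moved toward 0, to -0.098, -0.085, -0.10, -0.089, -0.055 and -0.068 in the same order. MT-ND3, RPS29, NDUFB1 and RPS15A kept their calls under it. The offset takes the length of 1 annotated transcript per gene, which may not be the one expressed. That length was 2203 nt for RPS15A and 3647 nt for RPL37A. The log2 fold change of RPS15A was -0.702 without and -0.705 with the offset, so its kept call says little about length.

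**Figure D3:**
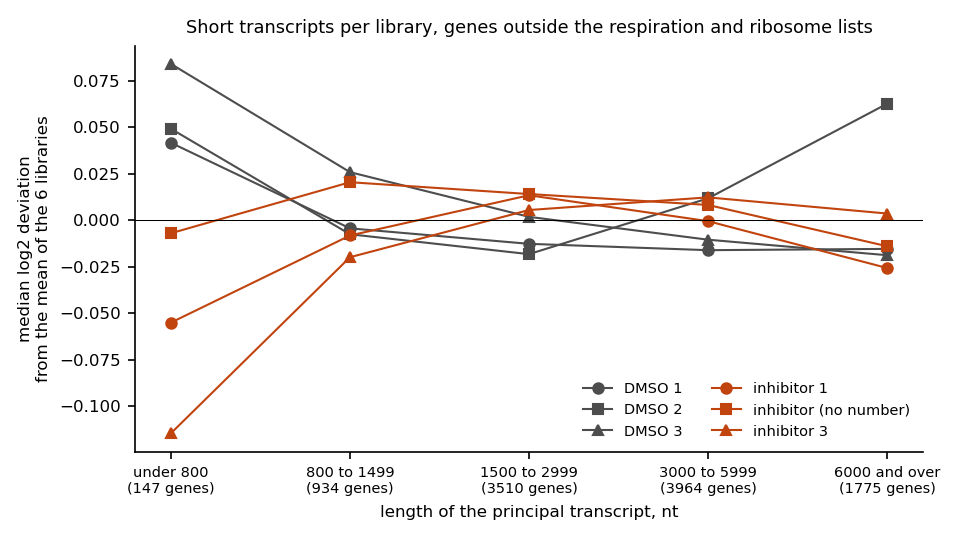
Median log2 deviation from the mean of the 6 libraries, by length of the principal transcript in nt, with 1 line per library. Genes are protein-coding and outside the nuclear respiration and ribosome lists, and mitochondrially encoded messages are included. Under 800 nt the 3 DMSO libraries lie between 0.042 and 0.084 and the inhibitor libraries between -0.11 and -0.0069. In the other length classes up to 6000 nt all lie close to 0. At 6000 nt and over DMSO replicate 2 lies at 0.063 and the other libraries between -0.026 and 0.0037.

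Calls among cell cycle genes were few in the G1/S list and all falls in the G2/M list. Of 43 G1/S and replication genes 1 rose and 1 fell, a share of 4.65%, near the 3.99% of all genes. Without DMSO replicate 1 there were 3 rises and without inhibitor replicate 1 there were 4. CDT1, which licenses replication origins, rose from 111, 90.4 and 104 to 137, 143 and 150 CPM, a log2 fold change of 0.49 (SE 0.07; edgeR, adjusted p = 9.1e-04). RRM2, the regulated subunit of ribonucleotide reductase, fell from 62.4, 65.2 and 62.5 to 48.3, 51.6 and 50.5 CPM, a log2 fold change of -0.34 (SE 0.05; edgeR, adjusted p = 0.0028). Of 43 G2/M genes 5 fell (11.6%, against 2.1% of all genes) and 39 had negative differences, with a median of -0.11. UBE2C, the ubiquitin-conjugating enzyme of the anaphase-promoting complex, fell by 0.29 (SE 0.05; edgeR, adjusted p = 0.0049), and just missed the threshold without DMSO replicate 3 (edgeR, adjusted p = 0.056). The number of G2/M falls was 0 without DMSO replicate 3, 1 without inhibitor replicate 1 or 3, 2 without DMSO replicate 2 and 3 without the unnumbered inhibitor library.

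Stress and early-response genes held scattered rises. Called members made up 23.8% of the p53 targets and 13.3% of the ATF4 response genes tested. For AP-1 and early-response genes and NRF2 targets the shares were 21.7% and 8%. Of all genes 3.99% were called, 1.89% as rises and 2.1% as falls. Of 21 tested p53 targets, in a line known to carry mutant p53, 4 rose and 1 fell. The rises were 2 without DMSO replicate 2, DMSO replicate 3 or the unnumbered inhibitor library and 1 without inhibitor replicate 3, and the fall was called with DMSO replicate 1 left out but with no other library left out. BBC3, the pro-apoptotic PUMA gene, rose from 75.2, 62.3 and 74.8 to 96.2, 98.8 and 96.4 CPM, a log2 fold change of 0.46 (SE 0.06; edgeR, adjusted p = 0.0014). GDF15, a secreted stress cytokine, rose from 133, 99.6 and 127 to 154, 163 and 160 CPM, a log2 fold change of 0.41 (SE 0.08; edgeR, adjusted p = 0.011) that did not pass without inhibitor replicate 3 (edgeR, adjusted p = 0.054). Of 30 ATF4 response genes 4 rose, GDF15 and DDIT4 among them. The rises were 2 without DMSO replicate 2, DMSO replicate 3 or the unnumbered inhibitor library, 1 without inhibitor replicate 3 and 7 without inhibitor replicate 1. Of 23 AP-1 and early-response genes 3 rose and 2 fell, with JUNB, an AP-1 subunit, at 66.3, 61.4 and 61.2 against 80.2, 81.8 and 77.4 CPM (log2 fold change 0.34, SE 0.05; edgeR, adjusted p = 0.0025). With a library left out there were 2 to 4 rises and 0 to 3 falls, with 0 falls without DMSO replicate 3 or the unnumbered inhibitor library and 1 without DMSO replicate 2 or inhibitor replicate 3. Lists for the unfolded protein response (23 tested), hypoxia (21), fatty acid oxidation (23) and ABC transporters (21) held no gene called by edgeR in either direction. At an unadjusted p under 0.05 edgeR had 7, 2, 4 and 6 of their genes, and DESeq2 called 0, 2, 1 and 1 after adjustment. Of 25 NRF2 targets 2 rose, against 0 without DMSO replicate 2, DMSO replicate 3 or inhibitor replicate 3 and 1 without inhibitor replicate 1. The call of TKT, the transketolase gene, did not hold without DMSO replicate 2 (edgeR, adjusted p = 0.056). HMOX1, the heme oxygenase gene of that list, did not pass at 0.43 (SE 0.20; edgeR, adjusted p = 0.25).

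Junction, adhesion and epithelial genes included further named changes. Among the largest rises were CDK18, a cyclin-dependent kinase, from 8.84, 8.19 and 7.69 to 12.8, 11.5 and 13.05 CPM, and CGNL1, a junction protein that binds the actin belt, from 20.4, 18.1 and 17.2 to 28.3, 27.0 and 26.4 CPM. Their log2 fold changes were 0.59 (SE 0.10) and 0.55 (SE 0.08; edgeR, adjusted p = 0.0041 and 0.0013). TJP3, a tight junction scaffold, rose by 0.61 (SE 0.12; edgeR, adjusted p = 0.012), and not without DMSO replicate 3 (edgeR, adjusted p = 0.07). TJP3 was the only gene called of 27 tested on the junction list (3.70%, near the 3.99% of all genes), which does not hold CGNL1. LAMA3, a laminin chain of epithelial basement membrane, fell from 163, 203 and 173 to 135, 128 and 125 CPM, a log2 fold change of -0.47 (SE 0.07; edgeR, adjusted p = 0.0016). Of 16 tested keratins 4 fell and 1 rose, a called share of 31.25% against 3.99% of all genes. KRT15, a basal keratin, fell from 12.4, 10.2 and 10.95 to 7.04, 5.97 and 6.86 CPM (log2 fold change -0.76, SE 0.11; edgeR, adjusted p = 0.0017), while KRT6A rose by 0.58 (SE 0.13; edgeR, adjusted p = 0.021). The KRT6A call ended without DMSO replicate 3, the unnumbered inhibitor library or inhibitor replicate 3 (edgeR, adjusted p = 0.11, 0.092 and 0.078), and reads may be split with its close paralogs. The keratins had 2 falls without DMSO replicate 2, and 1 without DMSO replicate 3 or inhibitor replicate 3.

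**Figure D4:**
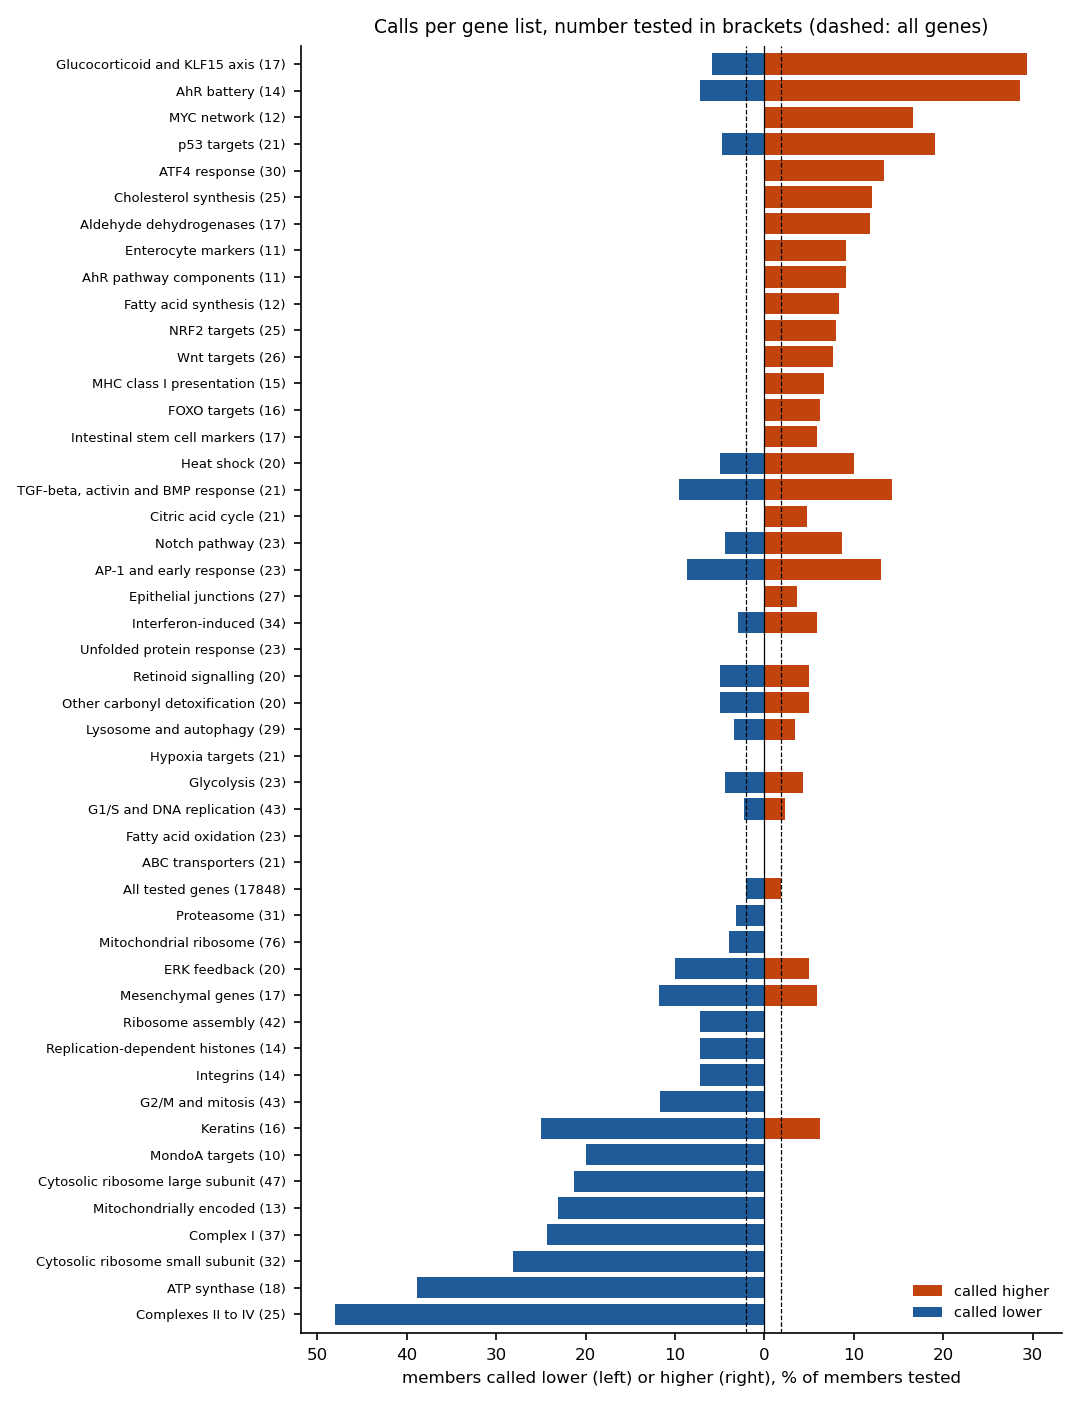
Percentage of tested members called lower (left) and higher (right) for each gene list with at least 10 tested members, with the number tested in brackets and dashed lines at the 2.1% and 1.89% of all genes. Complexes II to IV, ATP synthase and the small ribosomal subunit reach furthest to the left, and the glucocorticoid and AHR lists furthest to the right.

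Among 17 tested aldehyde dehydrogenases 2 rose, ALDH1A3 and ALDH6A1, and 16 of 17 had positive differences. The share that rose was 11.8%, against 1.89% of all genes. Over all genes 8845 of 17848 differences were positive. Without DMSO replicate 2, DMSO replicate 3 or the unnumbered inhibitor library 1 rose. ALDH2, the closest mitochondrial relative of ALDH1B1, was at 76.7, 78.3 and 81.1 CPM with DMSO and at 88.1, 84.1 and 82.8 CPM with the inhibitor. Its log2 difference of 0.11 (SE 0.05) did not pass (edgeR, adjusted p = 0.23). The exception in sign was ALDH1A2, a low retinaldehyde dehydrogenase gene, at -0.24 (SE 0.15; edgeR, adjusted p = 0.38).

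The inhibitor comparison was set against the knockout comparison, coded EGFP minus ALDH1B1, which shares no library with it. Both groups of the knockout comparison are the same knockout clone, with an EGFP or an ALDH1B1 construct. It therefore measures the presence of the construct and holds no parental cells. The test of the difference on all 12 libraries called 974 of 19075 genes (5.11%), and 183 of the inhibitor's called genes were among them. Of 16093 genes tested in both comparisons, 276 were called in both, which is 39.9% of the inhibitor's calls and 9.40% of the knockout's. Of these 73 rose in both, 169 fell in both and 34 went opposite ways. All 34 had a called difference, which calls in opposite directions make nearly certain. In the knockout comparison 17.6% of genes were called, 8.36% higher and 9.22% lower.

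Some genes fell by like amounts in both. RPL26 fell by 1.14 (SE 0.06) with the inhibitor and by 1.13 (SE 0.12) in the knockout comparison, a difference of 0.02 (SE 0.15). LDHB fell by 1.19 (SE 0.07) and 0.95 (SE 0.06), a difference of -0.21 (SE 0.10) that did not pass (edgeR, adjusted p = 0.21). AHRR rose by 0.33 in both (SE 0.06 and 0.07), a difference of 0.03 (SE 0.09). Of RPL26 and LDHB 38.7% and 64.6% of the principal transcript is shared with other genes.

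Other genes did not. TXNIP and ARRDC4 rose in the knockout comparison, by 0.51 (SE 0.05) and 0.46 (SE 0.10), against their falls with the inhibitor, and both differences passed, at -0.88 (SE 0.07) and -0.84 (SE 0.13; edgeR, adjusted p = 2.9e-07 and 4.3e-04). ANXA1, a phospholipid-binding annexin, fell from 101, 121 and 110 to 82.5, 80.8 and 74.4 CPM with the inhibitor (log2 fold change -0.48, SE 0.06) and rose by 0.49 (SE 0.06) in the knockout comparison. CYP1A1 was at 0.36 (SE 0.20) in the knockout comparison, which did not pass, and its difference of 1.13 (SE 0.24) did (edgeR, adjusted p = 0.0078). For KLF15 the difference was 0.59 (SE 0.15; edgeR, adjusted p = 0.023) and for DCLK1, which fell in both, -0.66 (SE 0.14; edgeR, adjusted p = 0.01).

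**Figure D5:**
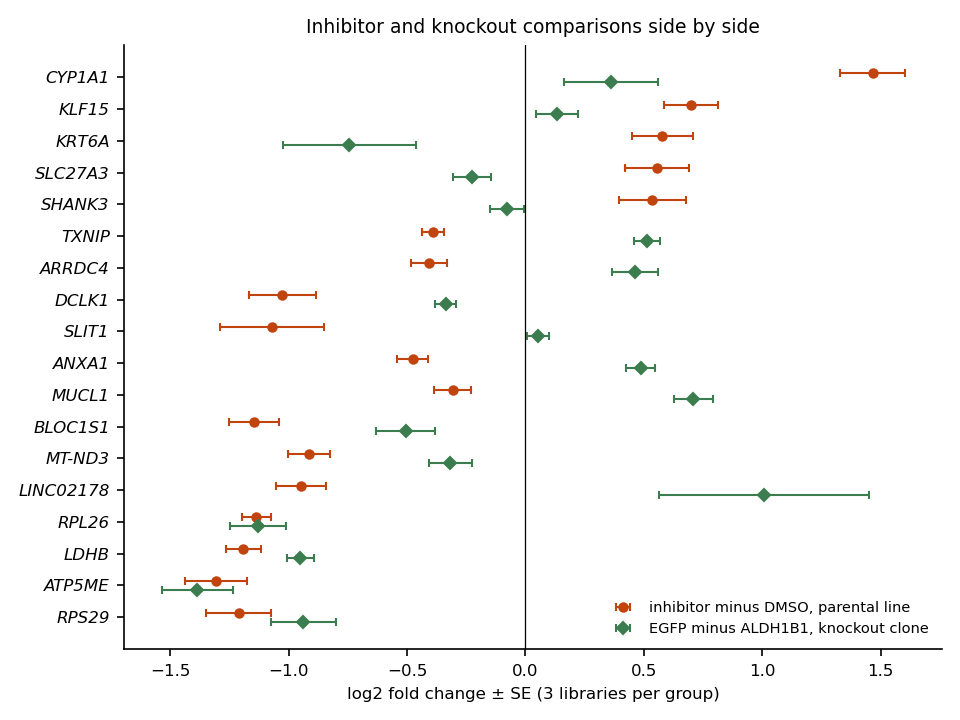
Log2 fold change with SE of 18 genes in the inhibitor comparison (circles) and in the knockout comparison (diamonds), 3 libraries per group. TXNIP, ARRDC4, ANXA1 and MUCL1 lie on opposite sides of 0 in the comparisons, while RPL26, LDHB, ATP5ME and RPS29 are negative in both; of RPL26, LDHB and ATP5ME 38.7%, 64.6% and 49.9% of the principal transcript is shared with other genes.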

How the data were processed

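Libraries were prepared from oligo(dT)-enriched RNA with an NEBNext kit, per the labels' protocols. Of tools, fastp, STAR and DESeq2 are listed without versions in the submitters' processing notes, with hg38 as the genome. Neither the counting program nor its strand setting is stated in the sources used here. The deposited count columns hold whole reads per gene, per the file headers. The authors' deposited log2 fold changes and p-values served only to count shared calls, and 24 normalized or FPKM columns were not used. Exon lengths of all listed genes equal GENCODE 29, used for coordinates, principal transcripts and shared exons (either strand).

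The test was the quasi-likelihood F test of edgeR 4.0.16 (R 4.3.3; glmQLFTest, TMM, filterByExpr, Benjamini-Hochberg adjustment, threshold 0.05, no covariate), on the 6 parental libraries, and the difference from the knockout comparison on all 12. SE came from the F statistic, and CPM from TMM-scaled totals. The tests were tried on simulated counts. Alternatives were relative log expression factors, no low-count filter, DESeq2 1.42.0, a replicate block, each library left out, and an offset for length and GC content (mgcv 1.9.3).

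Named genes were ALDH1B1, cell markers, the 15 largest rises and falls called at 5 CPM or more without overlap, up to 4 called members per list of 53 lists, a fixed set of pathway genes and genes called oppositely in the knockout comparison. The genes and lists were chosen with earlier results of these data known, so they are no independent support. Promoter windows are from RefSeq on GRCh38.p14. Results for some genes are not reported here.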

Additional observations from a re-analysis of the deposited data

Results flagged for a closer look

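For 24 named genes the effect of the inhibitor differed from that of the knockout comparison in the test on all 12 libraries (edgeR quasi-likelihood, Benjamini-Hochberg adjusted p under 0.05), which called 5.11% of genes. Values are log2 effects of the inhibitor minus those of EGFP against ALDH1B1. The difference was 2.48 for ALDH1B1, whose mRNA differs by construction in the knockout clone. It was 1.13 for CYP1A1, 0.59 for KLF15, 1.35 for KRT6A, 0.80 for SLC27A3, an acyl-CoA synthetase gene, 0.64 for the synaptic scaffold gene SHANK3 and 0.61 for FGF19, an intestinal hormone of bile acid control. It was -0.88 for TXNIP, -0.84 for ARRDC4, -0.94 for ANXA1, -0.99 for MUCL1, -0.66 for DCLK1, -1.10 for SLIT1 and -1.92 for LINC02178. MT-ND3 differed by -0.57 and BLOC1S1 by -0.62, and both fell in each comparison. Among list members the difference was 0.65 for CDT1, 0.55 for JUNB, 0.35 for KRT8, 0.34 for HSP90AB1, 0.29 for TKT, -0.41 for LAMA3, -0.70 for NOTUM and -1.501 for VIL1. The inhibitor calls of FGF19, MUCL1, SLC27A3 and SHANK3 ended in 7, 5, 5 and 8 of the 11 alternative fits.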

How the results depend on the processing

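All 712 called genes kept their direction in each of the 11 alternative fits. These fits reuse the same libraries, so that outcome was nearly fixed in advance. The number of calls moved to 1402 with no filter on low counts. With 1 library left out it ran from 171 (without DMSO replicate 3) to 832 (without DMSO replicate 1). Calls of at least 1.5-fold went from 105 to 199 with no filter, and to 44 (without inhibitor replicate 3) to 151 with a library left out. The difference from the knockout comparison had 392 (without ALDH1B1 replicate 1 of the clone) to 1003 calls in place of 974 with a library left out, where those of the clone were left out by a choice made after seeing the data. Of the 155 named genes 121 were called, 46 in every alternative, and no call reversed, which was likewise nearly fixed. With a minimum of 1 CPM in place of 5, 13 of the 30 largest changes were shared. The median of 147 short transcripts went from -0.12 to -0.050 with the length and GC offset. DESeq2 called 1046 genes. A replicate block could be fitted on numbers 1 and 3 only, since 1 inhibitor column has no number, and called 549 genes, and 481 for the difference from the knockout comparison. Same-numbered libraries deviated together by correlations of 0.0038 and -0.038, so the numbers are not shown to pair the samples. With no filter and with the block, edgeR estimated infinite prior degrees of freedom (11.3 in the fit reported), so no gene kept a spread of its own and the p-values of variable genes such as SLIT1 and AHNAK are too small in these fits. The cause of the other shifts was not tested. Genes near 1 CPM rest on few reads.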

Other observations

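Lowering the level limit to 1 CPM brought in genes of epithelial identity that the text has not described. HOXB13, a homeobox gene of the distal gut, rose from 3.04, 3.33 and 3.39 CPM with DMSO to 5.47, 5.71 and 5.58 CPM with the inhibitor, a log2 fold change of 0.78 (SE 0.13; edgeR, Benjamini-Hochberg adjusted p = 0.0049). SCEL and SPRR2D, genes of the cornified envelope of squamous epithelium, fell by 1.43 (SE 0.24) and 1.29 (SE 0.23; edgeR, adjusted p = 0.0039 and 0.0065). DMSO replicate 2 was the highest library for both, at 3.33 and 5.85 CPM. These genes are named by the largest changes at that lower limit.

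IDH2, the mitochondrial NADP-dependent isocitrate dehydrogenase, rose from 230, 215 and 231 to 269, 282 and 279 CPM, a log2 fold change of 0.30 (SE 0.05; edgeR, adjusted p = 0.0028), as the only one of 21 citric acid cycle genes to pass. That citric acid cycle share, 4.76%, was near the 3.99% of all genes. Of 25 cholesterol synthesis genes 3 rose (12%, against 1.89% of all genes). None of the 25 was called on leaving out DMSO replicate 2, DMSO replicate 3 or inhibitor replicate 3. The immediate-early genes ID1 and IER3 rose by 0.30 (SE 0.06) and 0.31 (SE 0.06; edgeR, adjusted p = 0.0077 and 0.0096).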
